A study of Mus musculus with 6 samples.

Results

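The Slco and Slc22a genes encode the organic anion transporting polypeptides (OATPs) and the organic cation, carnitine and organic anion transporters (OCTs, OCTNs and OATs). Members were matched in the gene table by symbol alone (Slco or Slc22a followed by a digit). The families themselves were chosen with earlier results of these data known. Of 24489 gene entries 41 matched, 15 Slco and 26 Slc22a. At least 10 reads over the 6 libraries were found for 27 of them, 9 Slco and 18 Slc22a. Just inside that limit lay Slc22a13b-ps with 11 reads, and just outside it Slco1c1 with 9. Among the other 14 entries, 7 had no read in any library and 7 had 1 to 9 reads.

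The libraries were made from polyadenylated RNA of a single liver lobe from mice at postnatal day 10, on a mixed C3H/C57bl6J background. One group of 3 was Jag1+/+ and the other group of 3 was Jag1Ndr/Ndr, homozygous for the Nodder (Ndr) allele, a missense change in the Notch ligand Jag1 that every cell carries. The homozygous mice serve as an Alagille syndrome model, a disorder with too few bile ducts and poor bile flow. The labels do not say whether each library is a separate animal, so the tests may in part measure technical spread.

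OATPs and most Slc22 proteins sit in the plasma membrane and carry bile acids, bilirubin, hormones, drugs and small charged metabolites between blood and cell. In the liver the best known are on the sinusoidal face of hepatocytes, where they take substrates from portal blood before metabolism or export into bile. In adult mice several of them differ between the sexes and respond to growth hormone or to xenobiotic-sensing nuclear receptors.

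Expression of these genes was lower more often than higher in Jag1Ndr/Ndr livers. Slco1a4 fell 6.59-fold, Slc22a7 4.43-fold, Slc22a29 3.75-fold and Slc22a27 3.04-fold, while Slc22a4 rose 3.37-fold. These were the 4 lower and 1 higher of 21 members tested that passed an adjusted p of 0.05 (quasi-likelihood test of edgeR, Benjamini-Hochberg adjustment over all 13819 genes tested). Of all genes tested, 2.90% were called lower, 4.73% higher and 7.63% in either direction. The fitted log2 fold change was below 0 for 15 of the 21 members, against 49.5% of all genes, and its median was -0.63, against 0.00 over all genes. Among the 15 were Slco4a1 and Slc22a8, which had 3 libraries over the level of the low-count filter in Jag1+/+ only. Slc22a30, above 0, had 3 over it in Jag1Ndr/Ndr only. The filter favoured these directions. As the families were chosen with earlier results of these data known, the comparison with all genes carries no test. In bulk liver RNA, fewer cells of a type and less RNA per cell cannot be told apart. Levels are given as CPM (counts scaled to library size by TMM) where genotypes are compared, and as the deposited RPKM (per kilobase of transcript) where genes are compared.

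**Figure D1:**
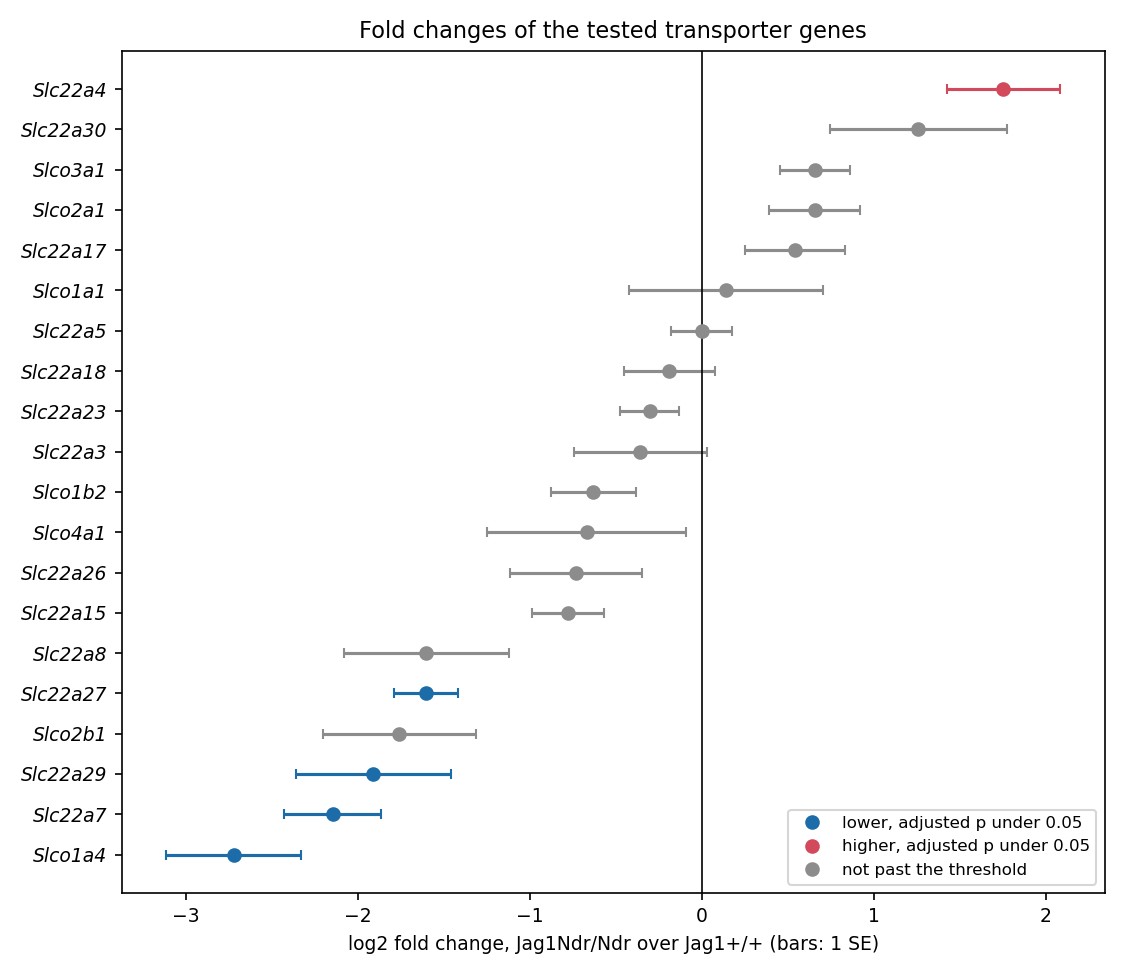
Fitted log2 fold change (Jag1Ndr/Ndr over Jag1+/+) with 1 standard error for 20 of the tested members, ordered by value, from 3 libraries per genotype. The 4 blue points are the members called lower, from -2.72 for Slco1a4 to -1.61 for Slc22a27, and the red point is Slc22a4 at 1.75, the member called higher.

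Upstream sequence is shown for 4 members of the gene clusters on chromosomes 6 and 19: the most abundant member, Slco1b2, with Slco1a4 of the same cluster, and the related pair Slc22a27 and Slc22a29, of which the last 3 were called lower. Each run is the 250 bases before a RefSeq start on GRCm38.p6, written 5′ to 3′ on the gene's strand. Slco1b2 lies at chr6:141629268-141629517, plus strand, Slco1a4 at chr6:141856221-141856470, minus strand, Slc22a27 at chr19:7966028-7966277, minus strand, and Slc22a29 at chr19:8218901-8219150, minus strand. Capitals mark the letters AGGTCA, a half-site shared by many nuclear receptors, on either strand. The RefSeq gene spans begin further upstream than these starts. They begin inside the run for Slco1b2 (141629452) and Slco1a4 (141856284), and beyond it for Slc22a27 (7966517) and Slc22a29 (8253375). Other start sites are thus annotated within or beyond the runs, parts of which may be transcribed, and distances hold only for the start used here.
Slco1b2: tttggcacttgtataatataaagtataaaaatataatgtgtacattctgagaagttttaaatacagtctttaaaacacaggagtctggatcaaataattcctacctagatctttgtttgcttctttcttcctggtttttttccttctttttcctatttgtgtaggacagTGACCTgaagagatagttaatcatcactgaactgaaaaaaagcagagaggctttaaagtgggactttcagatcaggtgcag
Slco1a4: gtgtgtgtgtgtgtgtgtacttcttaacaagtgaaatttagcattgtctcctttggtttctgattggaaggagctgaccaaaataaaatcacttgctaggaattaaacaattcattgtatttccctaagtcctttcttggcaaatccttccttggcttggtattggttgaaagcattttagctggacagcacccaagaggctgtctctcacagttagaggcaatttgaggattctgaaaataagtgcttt
Slc22a27: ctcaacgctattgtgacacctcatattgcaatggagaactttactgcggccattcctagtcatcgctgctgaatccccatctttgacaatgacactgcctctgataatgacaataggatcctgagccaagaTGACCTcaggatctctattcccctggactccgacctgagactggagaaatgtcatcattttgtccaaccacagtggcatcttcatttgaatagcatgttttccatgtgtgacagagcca
Slc22a29: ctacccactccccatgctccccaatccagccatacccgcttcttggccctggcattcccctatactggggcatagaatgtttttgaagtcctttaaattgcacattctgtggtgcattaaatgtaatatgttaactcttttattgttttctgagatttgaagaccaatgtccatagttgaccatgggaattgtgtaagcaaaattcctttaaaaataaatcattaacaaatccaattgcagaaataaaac
The Slco1b2 run holds the reverse-strand letters beginning 81 bases before the start, and the Slc22a27 run beginning 119 bases before it. The Slco1a4 and Slc22a29 runs hold none. Of all 32851 upstream runs of this length, 14.0% hold AGGTCA on either strand. The members had 40 such runs for 35 genes, and 5 of these genes hold it in at least 1 run. That count is by gene and the 14.0% is by run. A match of letters is a description and does not show that a factor binds there.

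Per kilobase of transcript, Slco1b2 was the most abundant member in Jag1+/+ livers, at 155, 143 and 161 RPKM in replicates 1, 2 and 3, with no overlap with the next. Slc22a18 followed at 55.0 to 66.2 RPKM and Slc22a7 at 38.7 to 69.9, and their ranges overlapped. Slc22a27 (18.0 to 23.2 RPKM), Slc22a23 (16.4 to 21.2), Slco1a4 (8.13 to 21.6) and Slco2a1 (8.04 to 12.3) formed a further run of overlapping neighbours. Slc22a29 came next at 3.30 to 5.76 RPKM, overlapping Slc22a26, whose highest value was 4.17. The genes from Slco2b1 to Slc22a15 lay between 1.03 and 2.76 RPKM, and the remaining 13 reported members lay under 1 RPKM in every Jag1+/+ library.

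**Figure D2:**
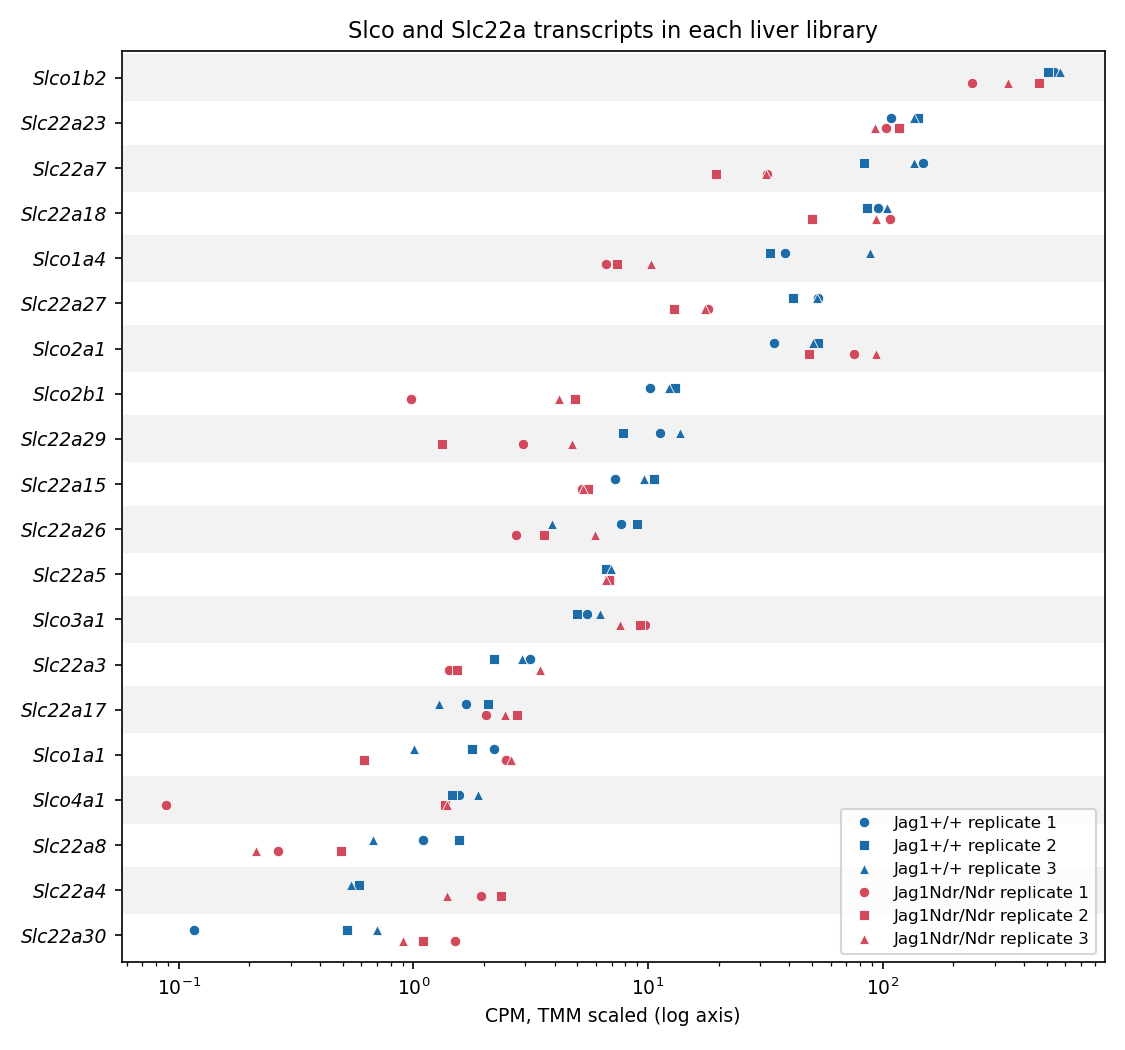
TMM-scaled CPM (log axis) of 20 of the tested members in each of the 6 libraries, blue for Jag1+/+ and red for Jag1Ndr/Ndr, with a symbol per replicate number. Slco1a4, Slc22a7, Slc22a27 and Slc22a29 show red points wholly to the left of blue ones, and Slc22a4 red points wholly to the right.

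Among the Slco1 genes, Slco1a4 fell, and Slco1b2 and Slco1a1 of the same cluster did not pass. Slco1a4 encodes Oatp1a4, which carries bile acids, steroid conjugates and digoxin. It measured 38.5, 33.2 and 88.6 CPM in Jag1+/+ replicates 1, 2 and 3, and 6.65, 7.38 and 10.3 CPM in Jag1Ndr/Ndr replicates 1, 2 and 3. The genotypes did not overlap, and Jag1+/+ replicate 3 stood well above the other Jag1+/+ libraries. The means were 53.5 ± 30.6 and 8.11 ± 1.93 CPM (SD, n = 3 per genotype), and the fitted log2 difference was -2.72 ± 0.39 (SE; edgeR adjusted p = 0.00776). The gene passed under all 15 alternatives, at -2.15 without Jag1+/+ replicate 3 and at -1.94 on the log2(RPKM + 1) scale, which understates changes of low values. Of its 50-base windows 1.61% occur exactly in transcripts of another gene, mostly Slco1a5, which had no read.

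Slco1b2 encodes Oatp1b2, the main hepatocyte OATP for unconjugated bile acids and bilirubin in mice. It measured 539, 505 and 569.8 CPM in Jag1+/+ and 240.4, 461 and 341 CPM in Jag1Ndr/Ndr replicates 1, 2 and 3. All Jag1Ndr/Ndr libraries lay below all Jag1+/+ libraries on this scale, replicate 2 by the least. The log2 fold change of -0.63 ± 0.25 did not pass (edgeR adjusted p = 0.173). Without Jag1Ndr/Ndr replicate 2 it was -0.89 and passed (edgeR adjusted p = 0.0406). In the deposited RPKM the genotypes overlapped, with Jag1Ndr/Ndr libraries at 52.0, 218 and 127.

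Slco1a1, the OATP that predominates in adult male liver, was scarce. It measured 2.20, 1.79 and 1.01 CPM in Jag1+/+ and 2.48, 0.617 and 2.61 CPM in Jag1Ndr/Ndr livers. The genotypes overlapped, the fitted value was 0.14 ± 0.57 (edgeR adjusted p = 0.922), and its sign turned in 5 of the alternatives. The relatives Slco1c1, Slco1a6 and Slco1a5 had 9, 1 and 0 reads in all.

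Within a library, the ratio of Slco1a4 to Slco1b2 RPKM does not depend on how libraries are scaled to each other. That ratio was 0.0616, 0.0567 and 0.134 in Jag1+/+ and 0.0238, 0.0138 and 0.0261 in Jag1Ndr/Ndr replicates 1, 2 and 3. The genotypes did not overlap. This ratio and those below were formed with the values known and carry no test. Slco1a4 made up 4.82% to 10.8% of the summed Slco RPKM in Jag1+/+ livers and 1.22% to 2.02% in Jag1Ndr/Ndr livers. Slco1b2 made up 80.8% to 87.5% and 75.6% to 88.4%, so its share overlapped between genotypes.

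Of the other Slco families none passed. Slco2b1, a sinusoidal carrier of steroid sulfates and statins, measured 10.2, 13.0 and 12.3 CPM in Jag1+/+ and 0.975, 4.88 and 4.16 CPM in Jag1Ndr/Ndr livers. The genotypes lay apart, with Jag1Ndr/Ndr replicate 1 the lowest. Its log2 fold change of -1.76 ± 0.44 stood at the threshold (edgeR adjusted p = 0.0504). It passed without Jag1Ndr/Ndr replicate 1 or 2 (edgeR adjusted p = 0.0116 and 0.0385) and by DESeq2 (adjusted p = 0.000683), and lay at 0.13 with library totals alone (edgeR adjusted p) and at 0.161 in the deposited RPKM (limma adjusted p). The noncoding genes Gm15635 and Gm34280 overlap its exons on the opposite strand, and without strand their reads cannot be told apart.

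Slco2a1, the prostaglandin transporter, measured 34.3, 52.9 and 50.3 CPM in Jag1+/+ and 75.6, 48.4 and 93.5 CPM in Jag1Ndr/Ndr livers, where replicate 2 lay inside the Jag1+/+ range. Its log2 fold change was 0.66 ± 0.26 (edgeR adjusted p = 0.186), and it passed without Jag1Ndr/Ndr replicate 2 (0.88, edgeR adjusted p = 0.049). The widely expressed Slco3a1, also a carrier of prostaglandins, stood at 5.57 ± 0.646 and 8.81 ± 1.10 CPM, a difference of 0.66 ± 0.20 on the log2 scale (edgeR adjusted p = 0.09), and passed by DESeq2. Slco4a1, a carrier of thyroid hormones, lay between 1.46 and 1.89 CPM in Jag1+/+ livers. In Jag1Ndr/Ndr livers it lay at 0.0886 CPM, a single read, in replicate 1 and at 1.36 and 1.39 in the others (log2 fold change -0.67 ± 0.58, edgeR adjusted p = 0.569). Slco2a1 is known in endothelium, and the summed CPM of 10 sinusoidal endothelial markers ranged over 722 to 834 in Jag1+/+ and 726 to 791 in Jag1Ndr/Ndr livers. These markers are of sinusoidal endothelium only, and the part of endothelial cells in the level of Slco2a1 was not tested.

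The organic anion transporters held 3 of the 4 falls. Slc22a7 (Oat2, chromosome 17, positions 46432185 to 46438477) takes up nucleotides and anionic drugs at the sinusoidal membrane. It measured 148, 83.1 and 136 CPM in Jag1+/+ and 32.2, 19.4 and 31.7 CPM in Jag1Ndr/Ndr replicates 1, 2 and 3. The lowest Jag1+/+ library stood well above the highest Jag1Ndr/Ndr library. The means of 122 ± 34.6 and 27.8 ± 7.21 CPM came with a fitted log2 difference of -2.15 ± 0.28 (edgeR adjusted p = 0.00554). Under the 15 alternatives this value ranged from -2.37 to -1.82 and passed in each, and none of its 50-base windows occurs in another gene's transcripts. Slc22a7 held 21.1% to 31.0% of the summed Slc22a RPKM in Jag1+/+ livers and 8.74% to 12.2% in Jag1Ndr/Ndr livers.

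Slc22a26, Slc22a27, Slc22a28, Slc22a29 and Slc22a30 form a row of rodent genes related to OATs on chromosome 19, on the minus strand, and their substrates are little known. Slc22a27 (positions 7864388 to 7966517) measured 52.8, 41.4 and 52.5 CPM in Jag1+/+ and 18.0, 13.0 and 17.5 CPM in Jag1Ndr/Ndr livers. The genotypes were well apart and each was tight (48.9 ± 6.48 and 16.2 ± 2.77 CPM), and the log2 difference was -1.61 ± 0.19 (edgeR adjusted p = 0.00353). This value ranged from -1.72 to -1.26 under the 15 alternatives and passed in each.

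Slc22a29 (positions 8160168 to 8253375) measured 11.3, 7.79 and 13.6 CPM in Jag1+/+ and 2.93, 1.32 and 4.75 CPM in Jag1Ndr/Ndr livers, without overlap. Its log2 fold change was -1.91 ± 0.45 (edgeR adjusted p = 0.04). The call was lost on leaving out, singly, Jag1+/+ replicate 1, 2 or 3 or Jag1Ndr/Ndr replicate 1 (edgeR adjusted p = 0.115, 0.0756, 0.138 and 0.0757), with sex as a covariate (0.0899), with library totals alone (0.0528) and on log2(RPKM + 1) (limma adjusted p = 0.0803), staying below 0 throughout. Exact 50-base windows shared with another gene made up 29.9% of Slc22a27, most of them with Slc22a29, and 28.7% of Slc22a29, most of them with Slc22a27. How the deposited counts divide reads between this pair is uncertain.

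Their tested neighbours Slc22a26 and Slc22a30 did not pass. Slc22a26 measured 7.64, 8.96 and 3.90 CPM in Jag1+/+ and 2.75, 3.59 and 5.92 CPM in Jag1Ndr/Ndr livers, overlapping (log2 fold change -0.73 ± 0.38, edgeR adjusted p = 0.312). Slc22a30 measured 0.116, 0.519 and 0.698 CPM in Jag1+/+ and 1.51, 1.09 and 0.907 CPM in Jag1Ndr/Ndr livers. All Jag1Ndr/Ndr libraries lay above all Jag1+/+ libraries, but its log2 fold change of 1.26 ± 0.52 did not pass (edgeR adjusted p = 0.193). The RPKM ratio of Slc22a30 to Slc22a27 was 0.00237 to 0.0143 in Jag1+/+ and 0.0558 to 0.0909 in Jag1Ndr/Ndr libraries. Of Slc22a30's windows 34.3% occur in other genes, mostly Slc22a28, which had 1 read in all.

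**Figure D3:**
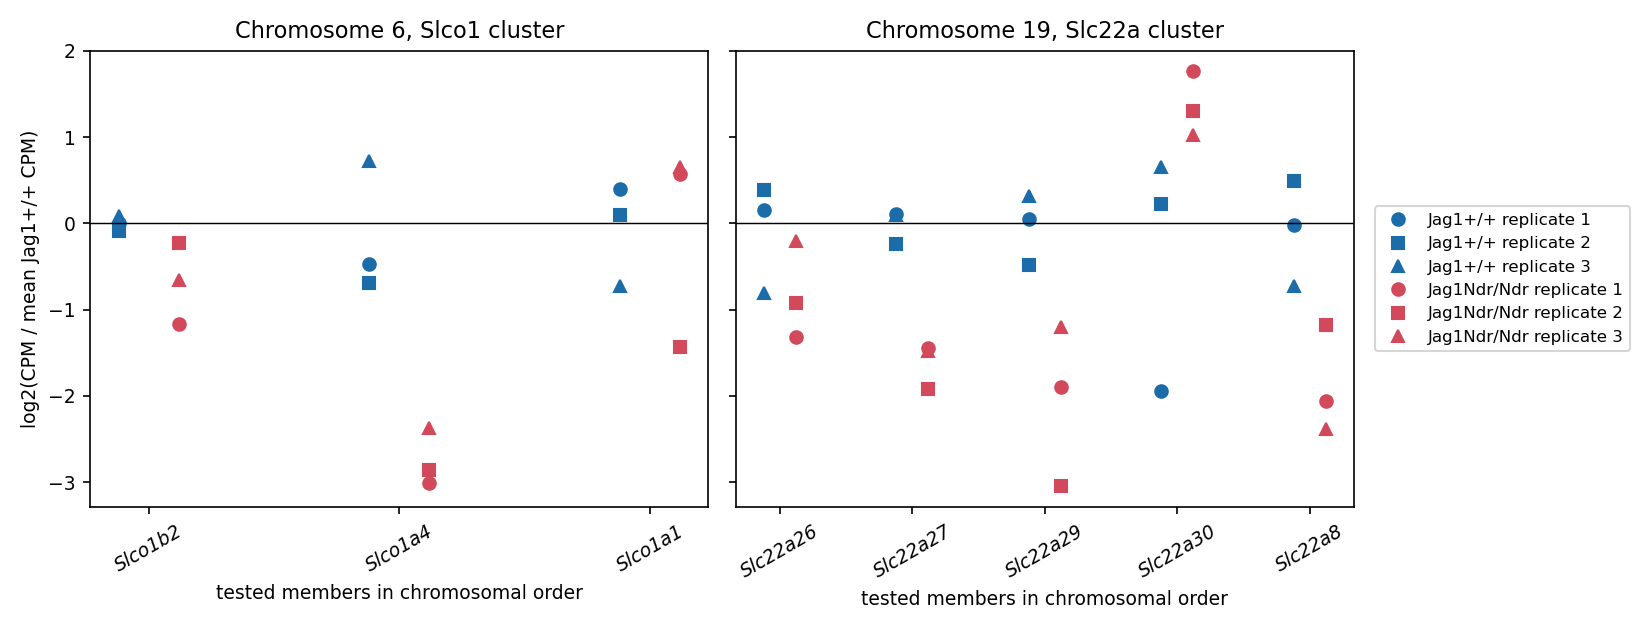
Each library's CPM relative to the mean of the Jag1+/+ libraries (log2 scale) for the tested members of the chromosome 6 and chromosome 19 clusters in chromosomal order, blue for Jag1+/+ and red for Jag1Ndr/Ndr. Slco1a4, Slc22a27 and Slc22a29 stand low in all 3 Jag1Ndr/Ndr libraries, while Slco1a1 is spread over both sides of 0 and Slc22a30 stands high.

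Slc22a8 (Oat3), next in that row and best known from kidney and choroid plexus, lay at 0.672 to 1.56 CPM in Jag1+/+ and 0.213 to 0.491 CPM in Jag1Ndr/Ndr livers (log2 fold change -1.60 ± 0.48, edgeR adjusted p = 0.0835). The filter on low counts asks for 3 libraries of either genotype over a set level. Slc22a8 was over it in 3 Jag1+/+ libraries and 1 Jag1Ndr/Ndr library, so a fall in Slc22a8 was favoured by the filter. Slco4a1 was over it in 3 Jag1+/+ and 2 Jag1Ndr/Ndr libraries, and Slc22a30 in 2 Jag1+/+ and 3 Jag1Ndr/Ndr libraries. The kidney relatives Slc22a6 and Slc22a12 had 3 reads each. The summed level of 10 kidney tubule markers, 2 of which could be tested, lay at 0.682 to 2.48 CPM in Jag1+/+ and 0.747 to 1.15 CPM in Jag1Ndr/Ndr livers. Of the markers too low to test, Kap and Slc34a1 had 24 reads each. Those of Kap all lay in Jag1+/+ replicate 3. Slc34a1 measured 0.568 CPM in that library and at most 0.0325 CPM in any other.

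Of the organic cation transporters, Slc22a3 (Oct3) stood at 2.74 ± 0.478 and 2.14 ± 1.15 CPM (log2 fold change -0.36 ± 0.39, edgeR adjusted p = 0.661). Its exons overlap those of Plg, the plasminogen gene, on the opposite strand, and 8.27% of its windows are shared, so part of its reads may belong to Plg. Slc22a2 (Oct2), the kidney form, had 13 reads in the Jag1+/+ and 3 in the Jag1Ndr/Ndr libraries and was too low to test. The ratio of its rates was 5.06 (Jag1+/+ over Jag1Ndr/Ndr, 95% exact interval 1.39 to 27.7, for counting error only). These 2 genes are adjacent on chromosome 17.

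The carnitine family gave the single rise. Slc22a4 (Octn1, chromosome 11, positions 53983115 to 54030040), a carrier of the antioxidant ergothioneine, measured 0.579, 0.584 and 0.543 CPM in Jag1+/+ and 1.95, 2.36 and 1.39 CPM in Jag1Ndr/Ndr replicates 1, 2 and 3. The Jag1+/+ libraries were nearly level, and all Jag1Ndr/Ndr libraries lay above them. The log2 fold change was 1.75 ± 0.33 (edgeR adjusted p = 0.0182). The call was lost on leaving out any single Jag1+/+ library (edgeR adjusted p = 0.0749, 0.0913 and 0.0943 for replicates 1, 2 and 3) and with a term for sex (0.053). On log2(RPKM + 1) the value was 0.66 (limma adjusted p = 0.0691).

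Slc22a5 (Octn2), the main cellular importer of carnitine and a close neighbour of Slc22a4, was nearly level, at 6.78, 6.62 and 6.98 CPM in Jag1+/+ and 6.91, 6.83 and 6.61 CPM in Jag1Ndr/Ndr livers. Its log2 fold change was 0.00 ± 0.18 (edgeR adjusted p = 0.998), turning to 0.12 with library totals alone and 0.18 in the deposited RPKM. The RPKM ratio of Slc22a4 to Slc22a5 was 0.107 to 0.121 in Jag1+/+ and 0.288 to 0.474 in Jag1Ndr/Ndr livers, without overlap. Between them lies Slc22a21 (Octn3), with 33 and 38 reads, which shares 22.0% of its windows, mostly with Slc22a5. Slc22a5 in turn shares 26.3% of its windows, mostly with Slc22a21. How the deposited counts divide reads between Slc22a5 and Slc22a21 is uncertain. Slc22a4 is known from erythroid and myeloid cells. The summed CPM of 9 erythroid markers was 305 to 443 in Jag1+/+ and 377 to 585 in Jag1Ndr/Ndr livers, and that of 9 neutrophil markers 620.4 to 747 and 1061 to 2340. Tfrc made up a large part of the erythroid sum, at 107 to 327 CPM in Jag1+/+ and 101 to 188 CPM in Jag1Ndr/Ndr livers (edgeR adjusted p = 0.533). Of the listed markers, 3 of 7 tested erythroid and 6 of 9 neutrophil ones were higher by edgeR. Their part in the rise of Slc22a4 was not tested.

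Of the other Slc22 members none passed. Slc22a18, an imprinted gene of unsettled function, lay at 95.03, 85.8 and 104 CPM in Jag1+/+ and 107, 50.03 and 93.4 CPM in Jag1Ndr/Ndr livers (log2 fold change -0.19 ± 0.27, edgeR adjusted p = 0.742), with replicate 2 the lowest. Slc22a23, an orphan carrier, stood at 129 ± 18.1 and 104 ± 11.9 CPM, and Slc22a17, described as a receptor for lipocalin 2, at 1.68 ± 0.393 and 2.42 ± 0.364 CPM, both overlapping between genotypes. Slc22a15 lay at 7.24 to 10.6 CPM in Jag1+/+ and at 5.23 to 5.53 CPM in Jag1Ndr/Ndr livers, without overlap (log2 fold change -0.78 ± 0.21, edgeR adjusted p = 0.0607), and passed by DESeq2 (adjusted p = 0.0133).

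Besides Slc22a2 and Slc22a21, 4 members with at least 10 reads were too low to test. Slc22a20 (Oat6, known from olfactory mucosa) had no Jag1+/+ read (0 of 3 libraries) and 1, 8 and 4 reads in Jag1Ndr/Ndr replicates 1, 2 and 3, at least 3.71-fold higher against a floor of 3 reads over the Jag1+/+ group. Slco4c1, a kidney carrier of cardiac glycosides, had 0, 11 and 12 reads in Jag1+/+ and 3, 63 and 14 in Jag1Ndr/Ndr libraries, and its rate was 2.98 times as high there (1.85 to 4.97, 95% exact interval). Slco5a1 had 7 and 14 reads, and the pseudogene Slc22a13b-ps 5 and 6. Such intervals and floors cover counting error only.

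In all, the CPM of the genotypes did not overlap for 13 tested members, with Jag1Ndr/Ndr livers below in 10 and above in 3. Over all genes tested this held for 14.2% in the lower and 14.8% in the higher direction, 29.0% in all. Slco4a1 and Slc22a8 were among the 10 members below and Slc22a30 among the 3 above, directions that the filter on low counts favoured. In the deposited RPKM, which the authors multiplied by their own library factors, 8 of the 21 members lay apart, against 19.3% of all genes tested. The authors' factors were 0.796, 1.28 and 1.10 for Jag1Ndr/Ndr replicates 1, 2 and 3, and those of edgeR 0.869, 1.20 and 1.07. TMM scaling of CPM divides by such factors, so the deposited RPKM shifts these libraries the opposite way. Relative to TMM scaling the median of all genes stood at 0.13 with library totals and at 0.18 in the deposited RPKM (log2, pseudocount 1). Over all genes 653 were called higher and 401 lower, against 606 and 210 with library totals and 388 and 101 in the deposited RPKM. Of the tested members Slc22a5 was the only one whose direction turned with library totals or in the RPKM.

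**Figure D4:**
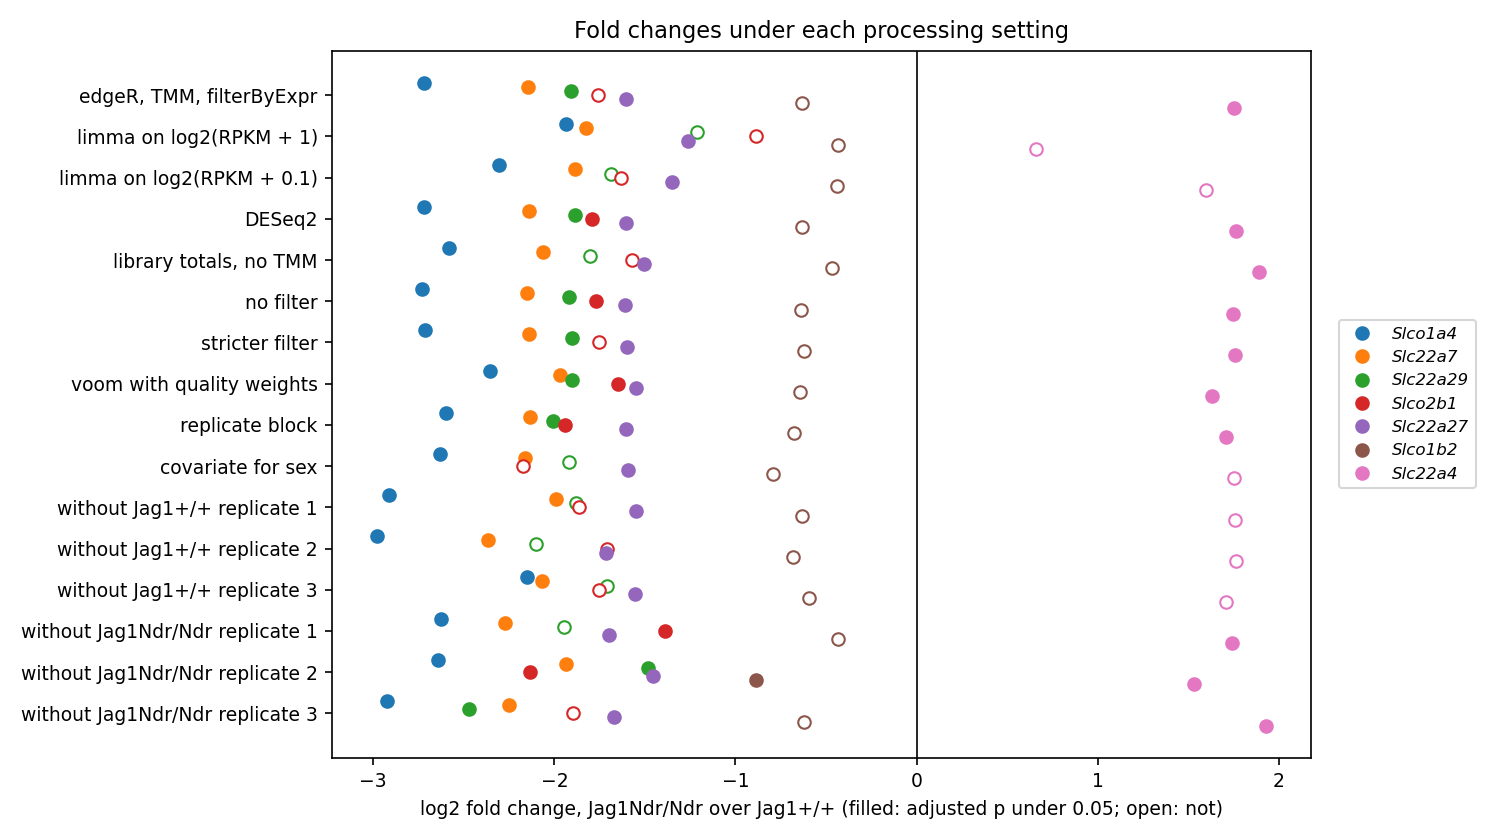
Log2 fold change (Jag1Ndr/Ndr over Jag1+/+) of the 5 called members, Slco2b1 and Slco1b2 under the main setting, at the top, and 15 alternatives, with filled points where the adjusted p was under 0.05. Slco1a4, Slc22a7 and Slc22a27 are filled in every row, while Slc22a29, Slco2b1 and Slc22a4 change between filled and open and Slco1b2 is filled only without Jag1Ndr/Ndr replicate 2.

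Other transporters of the hepatocyte membrane moved in either direction. Of 17 tested, 3 fell and 1 rose, with a median log2 fold change of 0.03. Abcc6, an ATP-dependent exporter of the sinusoidal side, fell from 152 ± 6.32 to 65.9 ± 11.3 CPM (edgeR adjusted p = 0.00722), the urate carrier Slc2a9 from 50.2 ± 6.13 to 28.5 ± 2.62 CPM (0.0178) and the exporter Abcg2 from 52.8 ± 7.42 to 34.4 ± 0.849 CPM (0.0425). Slc51b, a subunit of the bile acid exporter of the blood side, rose from 4.93 ± 0.311 to 14.1 ± 5.19 CPM (edgeR adjusted p = 0.0151), while its partner Slc51a had 0 reads in all libraries. The sodium-dependent bile acid importer Slc10a1 stood at 362 ± 62.1 and 371 ± 45.0 CPM (edgeR adjusted p = 0.948). Without any one of Jag1+/+ replicates 1, 2 and 3, 1 of these calls, Abcc6, was left, and without Jag1Ndr/Ndr replicate 3 there were 2. On both RPKM scales Abcc6 lost its call by limma and Slc51b alone passed.

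Of 20 tested regulators of liver transporter genes 4 fell and 0 rose by edgeR, with a median log2 fold change of -0.24. The growth hormone receptor Ghr fell from 392 ± 32.9 to 117 ± 38.5 CPM (edgeR adjusted p = 0.00768). Its signal carrier Stat5b went from 97.7 ± 14.0 to 56.8 ± 7.20 CPM (0.0318), the estrogen receptor Esr1 from 23.3 ± 7.39 to 6.76 ± 2.86 CPM (0.0232) and Ppara from 343 ± 66.4 to 133 ± 52.3 CPM (0.0349). Hnf4a, a factor that sets hepatocyte gene expression, did not pass, and neither did the xenobiotic receptors Nr1i2 and Nr1i3, whose log2 fold changes were -0.18 ± 0.17 and 0.16 ± 0.29. Without any one of Jag1+/+ replicates 1, 2 and 3, 1 of these calls, Ghr, was left.

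Library totals lay between 12992592 and 59653111 reads. With no read observed, the level can be as high as 0.231 CPM in the smallest library and 0.0503 CPM in the largest. Jag1 itself stood at 5.96 ± 0.807 and 4.84 ± 1.59 CPM (edgeR adjusted p = 0.638), and a missense allele need not alter it, so it does not check the labels. Xist and Y-linked reads marked 1 Jag1+/+ and 2 Jag1Ndr/Ndr libraries as female. The summed CPM of 9 hepatocyte markers, mostly albumin, was lower in Jag1Ndr/Ndr livers (109400 to 190400 against 221300 to 228500), with 1 of 9, Ttr, called lower. That of 9 macrophage markers was higher (1653 to 2820 against 771 to 1349; 2 of 9 called higher), and 10 cholangiocyte markers spanned 98.1 to 140.3 in Jag1+/+ and 78.3 to 473 in Jag1Ndr/Ndr livers (3 of 9 tested called higher). Summed levels were 1169 to 1287 and 948 to 1302 for stellate markers (1 of 10, Reln, called lower) and 69.2 to 104 and 16.3 to 68.5 for B lymphocyte markers (1 of 10, Cd79b, called lower). None of these lists had all its markers at 0. Their part in the falls of Slco1a4, Slc22a7, Slc22a27 and Slc22a29 was not tested.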

How the data were processed

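The deposited table holds, per the file headers, whole read counts per RefSeq gene entry for each library, without normalization, and RPKM. The authors had multiplied the RPKM by their own TMM factors. Undoing the factor left RPKM in proportion to reads per library total, within 5%, for 98.0% of values in 11559 genes. The submitters' processing notes name STAR and mm10, and no counting tool is named in them. The 93 spike-in and eGFP entries (5 reads altogether) were not used. One tested member and some context genes are not reported here by name. The members were matched by symbol alone, but these families and the lists were chosen with earlier results of these data known.

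Counts were filtered with filterByExpr, TMM-scaled and tested two-sided by quasi-likelihood in edgeR, with Benjamini-Hochberg adjustment over 13819 genes and significance at 0.05 (R 4.3.3 with DESeq2 1.42.0, edgeR 4.0.16 and limma 3.58.1). Of 27 members with at least 10 reads, 21 met the filter. Each standard error is the log2 fold change divided by the square root of F. The alternatives were limma on log2 of the deposited RPKM (pseudocounts 1 and 0.1), DESeq2, library totals, no filter or at least 1 CPM in 3 libraries, quality weights, a replicate block, a sex covariate and leaving out each library. Positions and promoters are RefSeq's on GRCm38.p6, and exon overlaps and 50-base windows come from GENCODE M21 transcripts, with no mismatch allowed. By rule, values per library are given for members past the threshold, for Slco1a4, Slc22a7 and Slco1b2 and for the 5 most abundant in RPKM, and of the context lists up to 4 genes with the smallest adjusted p are named. Slco1a1, Slco2a1, Slco2b1, Slc22a5, Slc22a26, Slc22a30 and the other context genes were named after their values were seen.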

Additional observations from a re-analysis of the deposited data

How the results depend on the processing

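Slco1a4, Slc22a7 and Slc22a27 kept their direction and their call under all 15 alternatives. The number of members called lower was 4 and became 7 by DESeq2 and with quality weights, and lay between 3 and 7 when a library was left out, 7 being without Jag1Ndr/Ndr replicate 2. The number called higher was 1 and became 0 on log2(RPKM + 1) and log2(RPKM + 0.1) and with sex as a covariate, 2 by DESeq2, and 0 to 2 when a library was left out. Over all genes the 1054 calls became 489 and 544 in the deposited RPKM (pseudocounts 1 and 0.1), 1890 by DESeq2, 1594 with quality weights, 596 with sex as a covariate and 282 to 1211 without a library, with 342, 282 and 319 without Jag1+/+ replicates 1, 2 and 3. The 4 calls among other transporters became 1 and 1 on the RPKM scales, 2 with library totals, 2 with sex as a covariate and 1 to 4 without a library. The 4 calls among regulators became 1 on either RPKM scale, 1 with library totals and 1 with a sex term, 7 by DESeq2 and 1 to 5 without a library. The cause of these shifts was not tested. Of 313 member fold changes under alternatives, 13 turned sign, none of them in a called member. Slco1a1 turned to -0.15 with quality weights, 0.00 with the replicate block (-0.002) and ranged from -0.24 to 0.65 when a library was left out, below 0 without Jag1+/+ replicate 3, Jag1Ndr/Ndr replicate 1 or Jag1Ndr/Ndr replicate 3. Slc22a18 ranged from -0.42 to 0.0835, above 0 without Jag1Ndr/Ndr replicate 2. Slc22a5 turned to 0.18 and 0.23 on the RPKM scales, 0.12 with library totals, 0.0042 with the stricter filter, 0.0066 with sex as a covariate and ranged from -0.0268 to 0.0168 without a library. Same-numbered libraries of the genotypes had correlated deviations of 0.0856, 0.17 and 0.195 for replicates 1, 2 and 3, each the highest for its library, but the labels do not say what the number marks. With the replicate block 1 member was called higher and 6 lower (Slco2b1 and Slc22a8 in addition), and 1430 genes were called in all. Low depth limits the members under 1 CPM.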
